A study of Mus musculus with 2 samples.

Results

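The genes described here are 8 mouse genes that mark lipid-associated macrophages: Apoe, Spp1, Gpnmb, Trem2, Fabp5, Lpl, Cd9 and Plin2. They were taken by name from the 33696 mouse genes of the count matrix, and all 8 had UMIs (counted RNA molecules) in the cells used, as did 24894 mouse genes in all. The cells were CD45+ immune cells sorted from subcutaneous tumours of MC38, a mouse colon carcinoma line, grown from 2000000 implanted cells in mice that carry human Fc receptors. All mice had this genotype, and their age was not given. Treatment began 10 to 14 days after implantation with 2 intraperitoneal injections of 100 µg antibody 3 days apart, and cells were taken 4 days after treatment. The antibodies were anti-mouse GITR human IgG1 Fc variants: GITR/Syn GA-aFuc, GA-aFuc and N297A, with a control that the labels call both PBS and Untreated. The deposited cell table describes N297A as an agonist with a null Fc, GA-aFuc as an agonist with an enhanced Fc, and GITR/Syn GA-aFuc as a non-agonist with an enhanced Fc. Hashtags, the antibody barcodes that mark each mouse's cells, gave 6 mice: 1 GITR/Syn GA-aFuc, 1 GA-aFuc, 2 N297A and 2 Untreated. A treatment with 1 mouse has no spread of its own, so every statement about GA-aFuc or GITR/Syn GA-aFuc rests on 1 animal.

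Of 8716 cells in this library, the authors' table names 4104 as macrophages, in 24 clusters, and 2486 as monocytes, in 15 clusters. Each mouse gave 613 to 761 macrophages and 324 to 562 monocytes. The median cell held 15222 mouse UMIs among macrophages and 9337 among monocytes. The summed level of 10 macrophage markers was 16425 to 19011 CPM (UMIs of a gene scaled to 1000000 mouse UMIs) in the macrophages of each mouse and 7126 to 9068 in the monocytes, whereas 8 monocyte markers came to 225 to 356 and 4722 to 6494. Epithelial markers that would mark the tumour cells came to at most 10.5 CPM in either type, with Krt19, Krt20 and Cldn4 at 0. All levels are in CPM, from the summed cells of 1 mouse unless given as pooled, and p-values measure the spread between these mice of 1 library. The matrix lists the 8 genes as Apoe (ENSMUSG00000002985), Spp1 (ENSMUSG00000029304), Gpnmb (ENSMUSG00000029816), Trem2 (ENSMUSG00000023992), Fabp5 (ENSMUSG00000027533), Lpl (ENSMUSG00000015568), Cd9 (ENSMUSG00000030342) and Plin2 (ENSMUSG00000028494).

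Lipid-associated macrophages take up lipid and cell debris and store or export it, and have been described in obese fat, in atherosclerotic plaque and in tumours. Trem2 encodes a surface receptor that binds lipids, lipoproteins and apolipoprotein E and signals through the adaptor Tyrobp, and in several tissues cells without it acquire less of this programme. Apoe encodes that apolipoprotein, which carries cholesterol out of the cell. Lpl encodes lipoprotein lipase, which releases fatty acids from triglyceride. Fabp5 encodes a carrier of fatty acids in the cytoplasm, and Plin2 a protein that coats lipid droplets. Spp1 encodes osteopontin, a secreted ligand of integrins and CD44. Gpnmb encodes a transmembrane glycoprotein found with lysosomes and induced by the MiT/TFE transcription factors, and Cd9 a tetraspanin of the plasma membrane and exosomes.

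RefSeq promoter windows, from 250 bases before to 50 bases after the start, matched 6 of the 8 genes (Apoe, Spp1, Gpnmb, Trem2, Cd9 and Plin2) on build GRCm38.p6, which is not the build of the counts. Those of Gpnmb, Trem2 and Plin2 are shown because each holds 1 of the 3 motifs searched on both strands. The AP-1 motif was searched in the loose form TGANTCA, with any base at N, which matched TGACTCA in Gpnmb and TGAATCA in Trem2. The others were the E-box CACGTG that MiT/TFE factors can bind and the DR1 element of PPAR receptors. The AP-1 motif (capitals) starts at base 9 after the start in Gpnmb (chr6:49036268-49036567, plus strand) and 9 bases before it in Trem2 (chr17:48346151-48346450, plus strand). The E-box (capitals) starts 4 bases before the start of Plin2 (chr4:86670010-86670309, minus strand).
Gpnmb: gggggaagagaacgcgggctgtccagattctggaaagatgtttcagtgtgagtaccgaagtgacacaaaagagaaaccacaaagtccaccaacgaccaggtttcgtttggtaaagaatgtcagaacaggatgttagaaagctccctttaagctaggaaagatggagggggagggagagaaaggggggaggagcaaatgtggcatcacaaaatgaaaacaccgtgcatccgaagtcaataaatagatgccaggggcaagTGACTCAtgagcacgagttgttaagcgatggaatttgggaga
Trem2: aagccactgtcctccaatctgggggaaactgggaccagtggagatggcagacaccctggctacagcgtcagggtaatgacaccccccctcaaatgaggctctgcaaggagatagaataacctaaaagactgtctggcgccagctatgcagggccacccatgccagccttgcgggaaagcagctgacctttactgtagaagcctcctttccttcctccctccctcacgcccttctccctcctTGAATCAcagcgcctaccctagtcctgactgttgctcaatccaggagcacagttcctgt
Plin2: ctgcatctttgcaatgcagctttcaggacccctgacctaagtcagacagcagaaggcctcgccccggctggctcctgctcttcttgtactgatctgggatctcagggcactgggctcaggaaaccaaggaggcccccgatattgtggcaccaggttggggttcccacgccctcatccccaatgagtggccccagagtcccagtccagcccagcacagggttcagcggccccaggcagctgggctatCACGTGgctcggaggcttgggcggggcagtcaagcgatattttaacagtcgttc
Of 32851 promoter windows of the same length, 7.81% hold the AP-1 motif, 7.15% the E-box and 0.381% the DR1 element. The AP-1 motif was in 2 of the 6 windows, the E-box in 1 and the DR1 element in 0.

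The 8 genes did not sort to macrophages as a group. Trem2, Apoe and Lpl were higher in macrophages than in monocytes, Cd9, Spp1 and Plin2 were higher in monocytes, and Gpnmb and Fabp5 did not pass the test. The test was edgeR's quasi-likelihood test on the 12 sums, with the mouse as a block and Benjamini-Hochberg adjustment over 11958 genes, at a threshold of 0.05. It called 58.8% of all genes, so 6 of 8 is to be read against that share. The authors named the types from the same cells, so these tests describe their 2 classes.

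The receptor Trem2 was at 286 and 300 CPM in the macrophages of the Untreated mice, 320 and 362 with N297A, 307 with GA-aFuc and 386 with GITR/Syn GA-aFuc, against 163 to 197 in the monocytes of the 6 mice. The 2 types did not overlap. The log2 difference was 0.77 ± 0.04 (SE; edgeR adjusted p = 1.08e-12). Its ligand Apoe was at 8561 and 5048 in macrophages of the Untreated mice, 9803 and 9823 with N297A, 9531 with GA-aFuc and 9143 with GITR/Syn GA-aFuc, and at 4481 to 6538 in monocytes. Untreated replicate 2 was the lowest in both types, and Apoe was higher in the macrophages of each mouse (log2 difference 0.48 ± 0.09, edgeR adjusted p = 0.00278). Apoe came to 9871 CPM in barcodes outside the cell table that held 10 to 100 mouse UMIs, which stand for free RNA. In CD8 T cells, which should lack the gene, it was at 402 ± 146 (SD, n = 6), with 317 of their 3539 Apoe UMIs in 1 cell; the part of free RNA or doublets in this was not tested. Free RNA held the other genes too: Trem2 at 365, Spp1 at 190, Fabp5 at 152, Cd9 at 105 and Gpnmb at 12.2 CPM, each above its mean in macrophages, and Plin2 at 187 and Lpl at 14.7, below theirs.

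The lipase Lpl had the largest difference of the 8. Macrophages held 41.7 and 47.7 CPM in the Untreated mice, 37.6 and 20.9 with N297A, 29.4 with GA-aFuc and 45.1 with GITR/Syn GA-aFuc, and monocytes held 6.62 to 11.9. The types did not overlap, and the log2 difference was 2.01 ± 0.12 (edgeR adjusted p = 1.97e-11). The tetraspanin gene Cd9 went the other way: 77.7 and 84.4 in macrophages of the Untreated mice, 114 and 71.4 with N297A, 106 with GA-aFuc and 128 with GITR/Syn GA-aFuc, against 148 and 149, 196 and 130, 240 and 290 in monocytes of the same mice. Cd9 was lower in the macrophages of each of the 6 mice (log2 difference -1.06 ± 0.05, edgeR adjusted p = 2.91e-12). The droplet protein gene Plin2 differed less, with 271 ± 38.9 CPM in macrophages and 312 ± 44.9 in monocytes (SD, n = 6), a log2 difference of -0.30 ± 0.04 (edgeR adjusted p = 1.59e-06).

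Spp1, the osteopontin gene, was at 53.7 and 123 in macrophages of the Untreated mice, 81.5 and 62.0 with N297A, 56.4 with GA-aFuc and 146 with GITR/Syn GA-aFuc. In monocytes of the same mice it was at 72.6 and 136, 123 and 128, 89.0 and 245. The 2 types overlapped over mice, but monocytes were higher within each mouse (log2 difference -0.70 ± 0.12, edgeR adjusted p = 0.00153). Without the mouse as a block the edgeR adjusted p for Spp1 was 0.122. Gpnmb was at 6.47 to 17.2 in macrophages, and at 1.17 to 3.41 in the monocytes of all mice but the GITR/Syn GA-aFuc mouse, which had 12.4 (log2 difference 1.29 ± 0.47, edgeR adjusted p = 0.0581). It passed without that mouse (edgeR adjusted p = 2.05e-05), without the block (0.0367), with DESeq2 (0.00692) and with limma-voom (0.00461). Fabp5 ranged from 47.7 to 184 in macrophages and from 59.3 to 157 in monocytes, ranges that overlap (log2 difference 0.28 ± 0.25, edgeR adjusted p = 0.379). Macrophage clusters 9 and 12, described below, were also left out, after seeing that they hold much of the Gpnmb, Fabp5 and Spp1. The differences of these genes had to fall by that choice, so no test is drawn from it. Without these clusters they were -0.73 for Gpnmb, -0.65 for Fabp5 and -1.53 for Spp1.

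**Figure D1:**
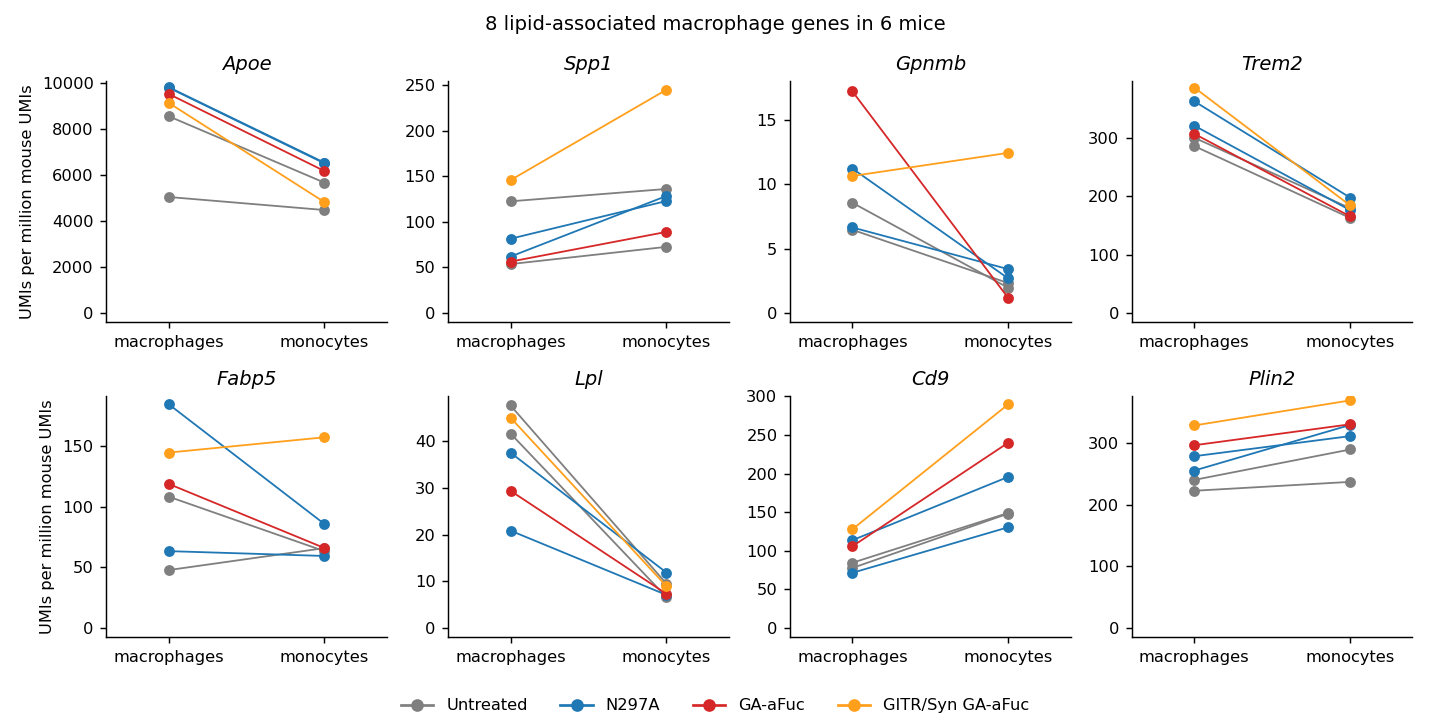
Level of each gene in CPM (linear axis from 0) in macrophages and monocytes; each line is 1 mouse, coloured by treatment. Trem2, Apoe and Lpl lie higher in macrophages, Cd9, Spp1 and Plin2 higher in monocytes, and the GITR/Syn GA-aFuc mouse has the highest monocyte level of Spp1, Gpnmb and Fabp5.

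Around the 8 genes, the lists of related genes also held members called in each direction. Their counts are to be read against all genes, of which 3541 of 11958 were higher in macrophages and 3493 lower, so that a list with about as many calls each way is near the background. All 7 MHC class II genes and 10 of 18 sterol synthesis genes, among them Insig1 (log2 difference -0.68 ± 0.06) and Cyp51 (-0.89 ± 0.08), were lower in macrophages by edgeR's test, with 1 sterol gene higher. Of 16 fatty acid oxidation genes, 7 were higher in macrophages and 1 lower, with Decr1 at 1.00 ± 0.11 and Hadh at 0.73 ± 0.09. Of 12 lipid uptake receptors tested, 9 were lower in macrophages, led by the oxidised LDL receptor Olr1 (-4.73 ± 0.12), and 2 were higher, among them the engulfment receptor Mertk (1.22 ± 0.10). Other lipid-associated macrophage genes were higher in 10 of 18 cases and lower in 3, with a list median of 0.19 beside 0.02 over all genes. Timp2 (1.65 ± 0.07), the lysosomal lipase gene Lipa (0.81 ± 0.05) and Folr2 (2.96 ± 0.30) were higher, and the protease inhibitor gene Cstb (-0.76 ± 0.04) lower. Among 9 genes of TREM2 signalling, 5 were lower in macrophages, including the adaptor Tyrobp (-0.26 ± 0.03) and the kinase Syk (-0.67 ± 0.04), and 3 were higher, including Adam10 (0.32 ± 0.04), whose protease can shed the receptor. Of 15 MiT/TFE factor and lysosomal proton pump genes tested, 7 were lower, led by Tfec (-0.86 ± 0.10), and 0 higher. Of 10 PPAR-gamma and fatty acid response genes, 2 were higher, among them Pparg (0.93 ± 0.09), and 3 lower.

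Of 16 LXR target and cholesterol efflux genes, 4 were higher in macrophages and 7 lower, with the phospholipid transfer protein gene Pltp at 0.99 ± 0.07 and the apolipoprotein gene Apoc1 at -3.66 ± 0.25. Of 14 lipid droplet and lipolysis genes, 3 were higher and 6 lower, with the acyl-CoA synthetase gene Acsl1 at 0.56 ± 0.08 and the triglyceride synthesis gene Dgat2 at -2.06 ± 0.11. Of 16 hypoxia genes, 3 were higher and 8 lower, among them Vegfa (-0.57 ± 0.05). Of 10 tetraspanins and Cd9 partners, 5 were higher, among them Tspan4 (1.23 ± 0.11), and 3 lower, among them Cd53 (-0.59 ± 0.04). Of 12 receptors of the secreted proteins, 4 were higher and 8 lower, among them the integrin gene Itga4 (-0.63 ± 0.04) and the sorting receptor gene Sort1 (-2.03 ± 0.18).

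Within macrophages, clusters 9 and 12 of the deposited table carried most of the Gpnmb and about as much of the Fabp5 and Spp1 as all other macrophage clusters. Cluster 9 held 227 cells and cluster 12 held 231, and together they had 9.78% of all macrophage UMIs. They held 79.7% of the macrophages' 654 Gpnmb UMIs, 54.1% of 7022 Fabp5 UMIs and, of 5528 Spp1 UMIs, 30.2% in cluster 9 and 19.8% in cluster 12. The shares were 23.5% for Cd9, 17.7% for Trem2, 17.3% for Apoe and 12.4% for Lpl, and for Plin2 they were 11.98% in cluster 9 and 8.05% in cluster 12. Since the authors made the clusters from these cells, the cluster levels are a description and carry no test.

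**Figure D2:**
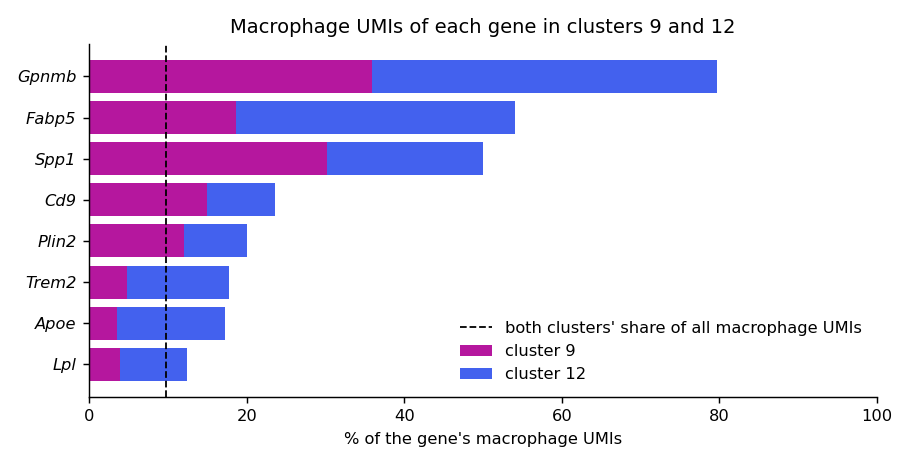
Bars give the share (%) of each gene's macrophage UMIs that lie in cluster 9 and in cluster 12, pooled over 6 mice, and the dashed line marks the 9.78% of all macrophage UMIs that both clusters hold. Gpnmb, Fabp5 and Spp1 reach 50% or more, and Lpl stays near the line at 12.4%.

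Within each mouse, the level in the summed cells of clusters 9 and 12 was set against the other macrophages of that mouse. The mean log2 ratio was 5.08 ± 0.40 (SD, n = 6) for Gpnmb, 3.32 ± 0.58 for Fabp5, 3.11 ± 0.45 for Spp1 and 1.41 ± 0.37 for Cd9. It was 1.16 ± 0.14 for Plin2, 1.01 ± 0.25 for Trem2 and 0.98 ± 0.20 for Apoe. These 7 genes were higher in the summed cells in 6 of 6 mice, and Lpl in 3 of 6, with a ratio of 0.26 ± 0.45. In cluster 9 by itself, Apoe and Trem2 were not higher in every mouse. Both clusters were picked for high levels of these genes in the same cells, so the ratios and counts of mice are descriptions and no replication.

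The 2 clusters shared these genes in different proportions. Pooled Apoe was at 7542 CPM in cluster 9 and at 7912 in the macrophages outside both clusters. Apoe was lower in cluster 9 with GA-aFuc (7499 against 8767) and GITR/Syn GA-aFuc (5166 against 8523), and higher in the Untreated and N297A mice. Trem2 was lower in cluster 9 with GITR/Syn GA-aFuc (272 against 362) and higher in all other mice. Cluster 12 was the high cluster for Apoe and Trem2. Its Apoe was at 18212 and 14753 CPM in the Untreated mice, 21788 and 25215 with N297A, 23028 with GA-aFuc and 20841 with GITR/Syn GA-aFuc. Its Trem2 was 735 ± 97.1 (SD, n = 6), and the next cluster, 30, was at 504 ± 45.6 with no overlap between their mice. For Apoe the next cluster, 34, with 19750 ± 1277 in the 2 mice that had 20 cells of it, did not differ beyond the spread. Beside these, cluster 12 had the complement gene C1qa at 7132 CPM (5476 in the other macrophages), the mannose receptor Mrc1 at 307 (117), the lysosomal protease Ctsd at 1925 (470) and Folr2 at 48.8 (3.29).

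Cluster 9 had the highest mean of Spp1, Gpnmb, Cd9 and Plin2, though for Spp1 and Gpnmb not in every mouse. Over the 5 mice with 20 or more cells of it, Spp1 was at 346 in Untreated replicate 2, 822 and 434 with N297A, 379 with GA-aFuc and 1337 with GITR/Syn GA-aFuc, a mean of 664 ± 422 (SD, n = 5). Cluster 12 had 304 ± 172 (n = 6), within that spread. In the Untreated mice cluster 12 was the higher one, with 269 and 620 against 131 (from 19 cells) and 346 in cluster 9. The third, cluster 39, had 105 ± 48.4 in the mice with 20 cells of it (n = 3), below every mouse of cluster 12. Pooled over all mice, the 113 cells of cluster 39 came to 190, above the lowest mouse of cluster 12 (176). Gpnmb was at 93.2 ± 50.7 in cluster 9, 76.9 ± 29.6 in cluster 12 and 17.6 ± 11.8 in cluster 39. The first pair overlapped, with cluster 9 higher in 3 of 5 shared mice, and cluster 39 lay below all mice of both. Plin2 was at 809 ± 119 in cluster 9 and 502 ± 232 in cluster 39, which overlapped. Cluster 9 had less C1qa (2243 CPM against 5710 in the other macrophages) and more of the elastase Mmp12 (1236 against 26.1), the galectin Lgals3 (5627 against 1253), the glucose transporter Slc2a1 (492 against 66.2), Vegfa (378 against 119) and the scavenger receptor Cd36 (183 against 31.5).

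Fabp5 varied from mouse to mouse inside these clusters. In cluster 12 it was at 534 and 136 in the Untreated mice, 784 and 513 with N297A, 892 with GA-aFuc and 1051 with GITR/Syn GA-aFuc. In cluster 9 it was at 1342 in N297A replicate 1 and at 205 to 427 in the other 4 mice with 20 cells, while the 19 cells of Untreated replicate 1 gave 673. Clusters 12, 9 and 39 all overlapped for Fabp5. Lpl had no such cluster: its highest was cluster 5, at 60.2 ± 36.3 (n = 6), which overlapped with cluster 39 at 59.8 ± 35.7, cluster 12 at 54.5 ± 26.6 and cluster 4 at 53.6 ± 17.2.

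Among the 10 of 15 monocyte clusters with 20 cells in at least 2 mice, cluster 8 (248 cells) had the highest mean Spp1, Plin2 and Fabp5. Its Fabp5 mean of 283 ± 349 rested on the GITR/Syn GA-aFuc mouse, at 984, with 66.1 to 244 in the other 5, and it was above the next cluster, 27 (148 ± 44.5), in 3 of 6 mice. Spp1 there was at 548 ± 402 CPM and Plin2 at 572 ± 246 (SD, n = 6), overlapping in both cases with the next cluster. Cluster 0 (284 cells) had the highest Cd9, at 459 ± 159, against 314 ± 189 in cluster 8. Cluster 8 had low Apoe, at 1350 to 2541 in the 6 mice, and low Trem2, at 49.8 to 111. Cluster 49 (84 cells) was not ranked, though 94.0% of its cells held a Plin2 UMI, against 88.7% in cluster 8.

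**Figure D3:**
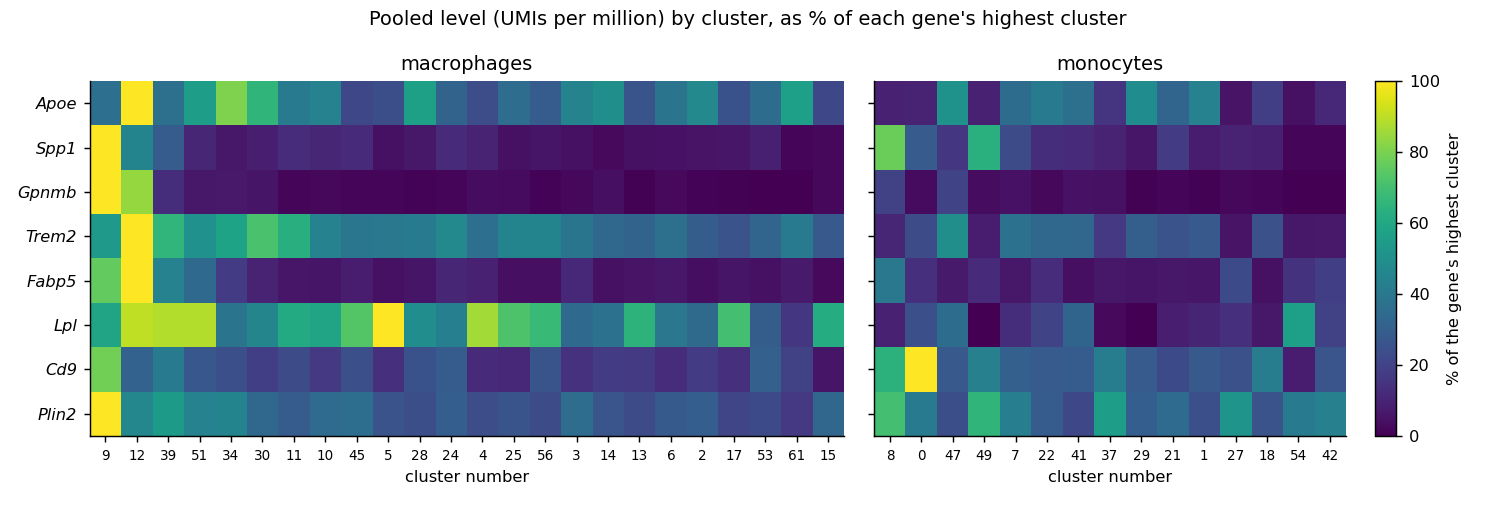
Pooled level of each gene in each macrophage and monocyte cluster, as a percentage of that gene's highest cluster (colour), with clusters ordered by their mean over the 8 genes. The highest macrophage cluster is 9 or 12 for every gene but Lpl, and monocyte cluster 0 is the highest of all for Cd9.

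Shares of cells with a UMI were compared after each cell had been thinned to 3000 UMIs, which left out 106 shallower cells of all types. Gpnmb was then found in 2.05% of 4058 macrophages (95% exact interval 1.63 to 2.53%) and in 0.814% of 2458 monocytes (0.498 to 1.25%), against 0.444% of CD8 T cells (0.121 to 1.13%). Unthinned, the shares were 5.41%, 1.97% and 0.992%, at median depths of 15222, 9337 and 8158 UMIs. In cluster 9 Gpnmb was found in 15.1% of thinned cells and in cluster 12 in 9.01%. Trem2 was found in 55.5% of macrophages, 33.6% of monocytes and 3.55% of CD8 T cells. Apoe was found in 98.1%, 91.0% and 55.7%, so a cell with an Apoe UMI says little about expression. Intervals cover counting error only.

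In single macrophages the genes formed loose pairs and no tight block. Over 28 pairs the median Pearson r of log2(count + 1) in thinned cells was 0.0791, taking for each pair the median of the 6 mice. The highest was Gpnmb with Fabp5, at 0.26 (0.03 to 0.44 over the mice), followed by Spp1 with Gpnmb at 0.23 (0.14 to 0.33), Apoe with Trem2 at 0.22 (0.19 to 0.24) and Spp1 with Fabp5 at 0.21 (0.10 to 0.37). For comparison, 99% of 4246 genes found in at least 10% of macrophages had an r under 0.0846 with Gpnmb, under 0.113 with Spp1 and under 0.1495 with Apoe. Some genes outside the set still paired more strongly. Apoe with Lyz2 was at 0.52 (0.47 to 0.61), above the range of Apoe with Trem2. Trem2 with Pf4 (0.27), Fabp5 with Lgals3 (0.31) and Spp1 with Arg1 (0.24) had higher medians than the pairs above, with overlapping ranges. For Gpnmb the highest such gene, Hilpda (0.21), was below Fabp5. Cells share library, depth and ambient RNA, so these values are descriptions. Apoe with Trem2 varied least between mice, and in monocytes it was 0.30 (0.24 to 0.34). Lpl was near 0 with each of the other genes.

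Part of each pairing lay between clusters. Centred on the cluster mean, r fell to 0.16 for Gpnmb with Fabp5 (-0.0031 to 0.35), 0.15 for Spp1 with Gpnmb and 0.16 for Apoe with Trem2 (0.14 to 0.17). Macrophages with UMIs of both Spp1 and Gpnmb numbered 32, which is 3.55 times the product of the single shares and above it in 6 of 6 mice. Gpnmb and Fabp5 were found together in 40 cells, 3.28 times the product. Thinned macrophages with at least 6 of the 8 genes numbered 55 (1.36%), of which 24 were in cluster 9 and 20 in cluster 12. There were 8 such monocytes (0.326%) and 0 of 901 CD8 T cells, which allows a share of up to 0.333%.

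**Figure D4:**
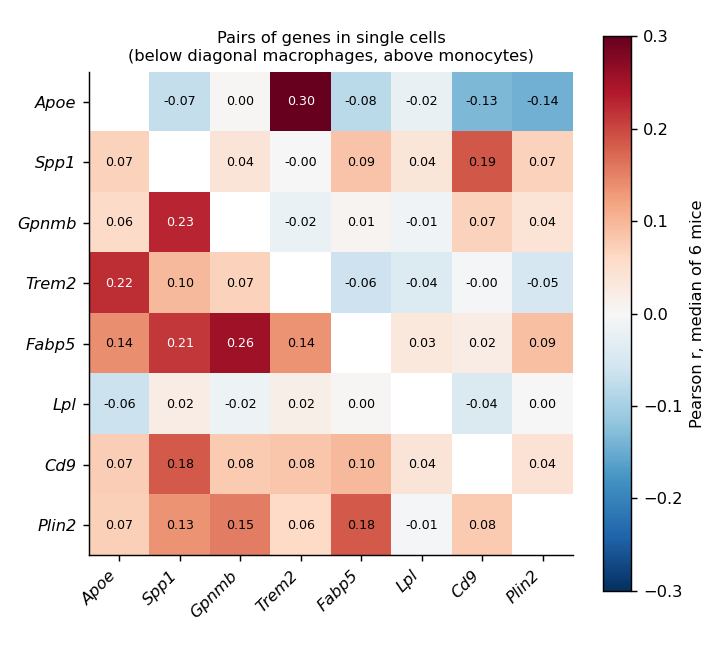
Pearson r of log2(count + 1) between each pair of the 8 genes in cells thinned to 3000 UMIs, as the median over 6 mice, for macrophages (below the diagonal) and monocytes (above it). Gpnmb, Fabp5 and Spp1 pair with each other in macrophages and reach at most 0.09 in monocytes, Apoe pairs with Trem2 in both, and Lpl stays within -0.06 to 0.04 in macrophages.

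Across 160 sums of 1 mouse and 1 macrophage or monocyte cluster with at least 20 cells, Apoe and Trem2 rose and fell together (r = 0.79 on log2 levels), as did Spp1 with Cd9 (0.63), Fabp5 with Plin2 (0.63) and Gpnmb with Fabp5 (0.61). Lpl ran weakly against Cd9 (-0.28). Of 3278 genes with a mean of at least 50 CPM, those most like Trem2 were Pf4 (0.84), Lgmn (0.83) and Mertk (0.83), and those most like Apoe were Lgmn (0.83), Itgb5 (0.77) and Selenop (0.75). Gpnmb was most like Ftl1 (0.66), Hmox1 (0.62) and Cd68 (0.59), and Spp1 most like Cstb (0.62), Ero1a (0.62) and Grina (0.61). Plin2 was most like Sdcbp (0.75), Lgals3 (0.75) and Card19 (0.73), and Fabp5 most like Ninj1 (0.74), Card19 (0.68) and Lgals3 (0.67). Cd9 was most like Cxcl2 (0.76), Clec4d (0.73) and Ier3 (0.73), and Lpl most like Cd63 (0.66), Slc25a4 (0.65) and Cd81 (0.65). The sums share mice and clusters, so no p is given.

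Under treatment, none of the 8 genes passed in macrophages. By edgeR's test over 4 treatments and 6 mice, the N297A contrast with Untreated called 0% of 13526 genes (450 at an unadjusted p under 0.05) and 0 of the 8, of which 0 had an unadjusted p under 0.05. DESeq2 and limma-voom also called 0 of the 8. The contrast of GA-aFuc with Untreated, that of GITR/Syn GA-aFuc with Untreated and that of both Fc-enhanced variants with the other treatments each called 0.0148% of genes and 0 of the 8, by DESeq2 and limma-voom too, with 2 of the 8 at an unadjusted p under 0.05 in each. By edgeR's test, 660, 690 and 650 of all 13526 genes had an unadjusted p under 0.05 in these contrasts, in the order named. The comparisons share their Untreated mice.

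The values nearest to a change in macrophages were those of Gpnmb and Plin2. Gpnmb was at 8.57 and 6.47 CPM in the Untreated mice, 11.2 and 6.65 with N297A, 17.2 with GA-aFuc and 10.6 with GITR/Syn GA-aFuc. The GA-aFuc mouse was the highest (log2 difference from Untreated 1.16 ± 0.30, edgeR adjusted p = 0.845). This difference passed when either N297A mouse was left out. In those fits only the 2 Untreated mice shared a treatment and gave a spread, so they say little. Plin2 was at 223 and 241 in the Untreated mice, 279 and 256 with N297A, 296.99 with GA-aFuc and 329 with GITR/Syn GA-aFuc. The Untreated mice were the lowest 2 of 6, and the difference of GITR/Syn GA-aFuc from Untreated was 0.49 ± 0.13 (edgeR adjusted p = 0.754). Apoe was low in 1 Untreated mouse, and its difference between N297A and Untreated was 0.53 ± 0.25 (edgeR adjusted p = 0.997).

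In monocytes, Fabp5 and Gpnmb were higher in the GITR/Syn GA-aFuc mouse than in the Untreated mice. Fabp5 was at 63.3 and 65.8 CPM in the Untreated mice, 85.6 and 59.3 with N297A, 65.9 with GA-aFuc and 157 with GITR/Syn GA-aFuc. The last mouse stood apart from the other 5 (log2 difference from Untreated 1.29 ± 0.18, edgeR adjusted p = 0.0343). Gpnmb was at 1.96 and 2.33, 2.69 and 3.41, 1.17 and 12.4 in the same order (2.52 ± 0.41, edgeR adjusted p = 0.0367). This contrast called 0.21% of 11422 genes. Few cells lay behind both values: 2 cells held 26 of that mouse's 43 Gpnmb UMIs, and 5 of its 108 cells with Fabp5 held 250 of 543 Fabp5 UMIs. Both values are near those of the free RNA, 152 CPM for Fabp5 and 12.2 for Gpnmb, whose part in them was not tested. Both calls were lost with limma-voom (adjusted p = 0.0696 for Fabp5 and 0.0715 for Gpnmb), with clusters at fixed shares and limma-trend (0.121 and 0.143), and without either Untreated mouse (0.141 and 0.0701 without replicate 1, 0.111 and 0.0627 without replicate 2). In those 2 fits without an Untreated mouse Spp1 passed instead, with log2 differences of 0.85 and 1.77. With all mice its difference was 1.23 (edgeR adjusted p = 0.72). Each of the 2 fits set 1 mouse against 1 mouse, with a spread from the 2 N297A mice only. They therefore say little about the spread of Spp1. Gpnmb alone was also lost without N297A replicate 2 (0.0507), with DESeq2 (1.00) and without the top 5% of cells by UMIs (0.0706).

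Outside the 8 genes, 3 of 18 other lipid-associated macrophage genes were higher in the monocytes of that mouse by edgeR's test: the ferritin light chain Ftl1 (0.67 ± 0.09) and the lysosomal proteases Ctsd (0.81 ± 0.12) and Ctsl (0.70 ± 0.11). The summed macrophage markers of its monocytes were 7126 CPM, the lowest of the 6 mice. Their summed neutrophil markers were 84.5, the highest of a range from 55.8 but close to the 82.5 of the GA-aFuc mouse. Their summed T cell markers were 51.2, the highest of a range from 24.9. S100a9, a neutrophil and monocyte gene of the neutrophil list, was also higher in that mouse (4.45 ± 0.68, edgeR adjusted p = 0.0343). Whether other cells took part in these values was not tested.

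The other monocyte contrasts called few genes and none of the 8 with edgeR. N297A against Untreated called 0.00876% of genes, with 2 of the 8 at an unadjusted p under 0.05, and GA-aFuc against Untreated called 0.193%, with 3 of the 8. Fc-enhanced against other called 0.184%, with 3 of the 8. Of all 11422 genes, 397, 816 and 846 had such an unadjusted p, in the same order. DESeq2 called 0, 0 and 1 of the 8 in these contrasts, the 1 being Cd9, and limma-voom called 0 in each. Cd9 was at 240 and 290 CPM in the Fc-enhanced mice and at 130 to 196 in the other 4, without overlap (log2 difference 0.75 ± 0.14, edgeR adjusted p = 0.161). Of the receptors of the secreted genes, the syndecan gene Sdc4 (0.83 ± 0.12) and the integrin gene Itga9 (0.77 ± 0.12) were higher with GA-aFuc than in the Untreated mice, 2 of 12 tested. Of the 8 monocyte markers, the chemokine receptor gene Ccr2 was lower with GA-aFuc than in the Untreated mice (-0.81 ± 0.11) and lower in the Fc-enhanced mice than in the others (-0.54 ± 0.08).

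Whether a treatment acted differently in the 2 types was tested with an interaction term. The difference of the N297A contrast between macrophages and monocytes called 0.00738% of 13556 genes and 0 of the 8, and that of the Fc-enhanced contrast 0.0369% and 0 of the 8. DESeq2 and limma-voom called 0 as well, and 2 of the 8 had an unadjusted p under 0.05 by edgeR in each. Of all 13556 genes, 536 and 823 had such a p.

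Inside single clusters, Spp1 and Cd9 were higher in monocyte cluster 8 of both Fc-enhanced mice than in the other 4 mice. Spp1 was at 302 and 468 CPM in the Untreated mice, 232 and 270 with N297A, 743 with GA-aFuc and 1272 with GITR/Syn GA-aFuc. The groups did not overlap, and the log2 difference was 1.71 ± 0.18 (edgeR adjusted p = 6.29e-09). Cd9 in the same cluster was at 143 and 268, 225 and 173, 440 and 634, again without overlap (1.43 ± 0.21, edgeR adjusted p = 6.82e-05). The GA-aFuc sum comes from 23 cells, 1 of which held 62 of 147 Spp1 UMIs, and the GITR/Syn GA-aFuc sum from 39 cells, 1 of which held 137 of 357. Without the GITR/Syn GA-aFuc mouse the log2 difference was 1.24 for Spp1 and 1.09 for Cd9. Only the 23 cells of the GA-aFuc mouse then stood for the Fc-enhanced side, so this fit says little about the spread. How far the lack of overlap for Spp1 rests on single cells was not tested.

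This contrast was fitted in the 18 clusters with at least 20 cells in every mouse. It called 0.132% of 126275 pairs of a gene and a cluster, of which 85 of 5518 genes were in cluster 8. Of 124 pairs with one of the 8 genes, the 2 above were called. Gpnmb passed the filter on low counts in only 2 of the 18 clusters, Lpl in 15, Spp1 in 17 and the other 5 genes in all 18. Cluster 9 had 19 cells in Untreated replicate 1 and so was not among them.

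**Figure D5:**
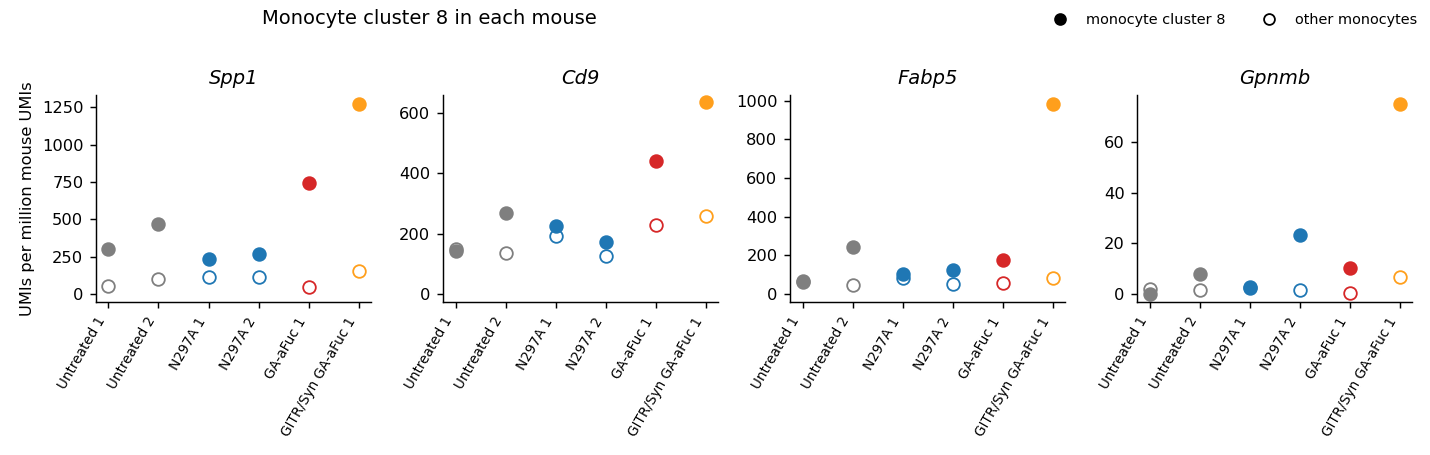
Levels of Spp1, Cd9, Fabp5 and Gpnmb in CPM in monocyte cluster 8 (filled points) and in all other monocytes (open points) of each mouse, coloured by treatment. Spp1 and Cd9 in cluster 8 are highest in both Fc-enhanced mice, and Fabp5 and Gpnmb in the GITR/Syn GA-aFuc mouse.

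Between N297A and Untreated, the fits within clusters called 3 of 124 pairs with one of the 8 genes, and 0.0333% of all pairs. Apoe was higher with N297A in macrophage cluster 2, at 10593 and 11664 against 6925 and 5339 CPM (log2 difference 0.85 ± 0.11, edgeR adjusted p = 0.0188), and in cluster 11, at 9727 and 10854 against 7254 and 5653 (0.62 ± 0.10, edgeR adjusted p = 0.00261). All clusters share the same Untreated mice, of which replicate 2 had the lower Apoe in the whole macrophages. The call in cluster 2 was lost without either Untreated mouse (edgeR adjusted p = 0.893 and 0.989), and that in cluster 11 with DESeq2 only. Spp1 was called in macrophage cluster 10 (1.56 ± 0.36, edgeR adjusted p = 0.0148), but its values of 27.4 and 114 with N297A and 30.1 and 19.4 in the Untreated mice overlap. Without N297A replicate 2 its log2 difference was 0.10.

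Cluster 9 made up 3.02 and 6.23% of macrophages in the Untreated mice, 5.22 and 3.87% with N297A, 6.44% with GA-aFuc and 7.99% with GITR/Syn GA-aFuc. The Fc-enhanced mice had the highest shares, though the GA-aFuc interval (4.8 to 8.42%, 95% exact, counting error only) covers those of 2 of the other mice. Among the table's macrophages that have under 1000 UMIs in this library, and whose mice are not known here, cluster 9 made up 2.02% in Untreated, 6.49% in N297A, 9.97% in GA-aFuc and 3.63% in GITR/Syn GA-aFuc, another order. Cluster 12 made up 4.30 to 6.87% in the 6 mice. Since the clusters come from the same cells, their shares are not independent of the levels.

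Some of the genes were higher elsewhere than in macrophages. Spp1 was at 528 and 885 CPM in NK cells of the Untreated mice, 420 and 504 with N297A, 1263 with GA-aFuc and 781 with GITR/Syn GA-aFuc, above the macrophages and monocytes of every mouse. It was at 81.3 ± 48.1 in CD8 T cells. Fabp5 was at 2008 CPM in 57 mregDC pooled over mice, with no mouse having 20 of these cells. Cd9 was at 294 in 47 pooled cDC1. In cDC2 it was at 166 ± 30.7 (SD, n = 6), above the macrophages of every mouse. In NK cells it was at 122 ± 24.8 (SD, n = 6), above the macrophages in the Untreated and N297A mice. With GA-aFuc (78.8 against 106) and GITR/Syn GA-aFuc (112 against 128) the NK cells lay below the macrophages. Trem2 was at 14.8 ± 3.83 in CD8 T cells and 10.4 ± 4.59 in NK cells, and Lpl at 1.22 ± 1.09 and 0.786 ± 0.452, below the macrophages and monocytes named above.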

How the data were processed

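The matrix holds raw UMI counts that the authors made with Cell Ranger 9.0.0, per the file headers, against GRCm39 joined with GRCh38 (builds per the submitters' processing notes). The counts are not normalized. Filtering, demultiplexing and clustering of the cells: not given in the sources used here. Of 19210 entries in the deposited cell table, 8767 had at least 1000 mouse UMIs in this library; 8716 remained once 18 entries sharing a barcode and 33 with a leading hashtag of a different treatment were dropped. Each hashtag was taken as 1 mouse; the design gives 3 mice per treatment and this library 6 in all. Doublets were not called.

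UMIs were summed per mouse and type or cluster. edgeR 4.0.16 (TMM, filterByExpr, robust quasi-likelihood, 2 residual degrees of freedom for treatments, in R 4.3.3) was tested on simulated data. The simulation gave all genes the same spread and changed only genes with many counts. It therefore does not cover sparse genes or genes that vary more between mice. A treatment with 1 mouse takes its spread from the others. The SE is the log2 difference over the root of the F statistic. Macrophages and monocytes of a mouse share the animal, hence the block. Alternatives were DESeq2 1.42.0, limma 3.58.1 (voom, and trend on cluster-standardised values), no filter, deeper cells, no top 5% of cells by UMIs and each mouse left out. The 8 genes and the lists were chosen with earlier results of these data known. Of each list, the counts between macrophages and monocytes are given with some of the up to 4 called genes of smallest p; between treatments, the lists with a call are given; the 3 genes most alike were taken by Pearson r of log2(level + 1). Totals were 9956287 to 11730961 UMIs per mouse in macrophages and 3416570 to 5577866 in monocytes; intervals and floors (3 counts) cover counting error only. Promoters are RefSeq's.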

Additional observations from a re-analysis of the deposited data

Results flagged for a closer look

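Of 40 sets of 5 or 6 mice (each gene in macrophages, in monocytes and in clusters 8, 9 and 12), 8 held a mouse far from the rest by Dixon's test, where chance flags about 1 in 20. In macrophages, Apoe was lowest in Untreated replicate 2, at 5048 CPM. In monocytes, the GITR/Syn GA-aFuc mouse was highest for Spp1 (245), Gpnmb (12.4) and Fabp5 (157), and in monocyte cluster 8 for Gpnmb (74.8) and Fabp5 (984). Cluster 9 had its highest Fabp5 in N297A replicate 1, at 1342 (Untreated replicate 1, with 19 cells, was not in this set and had 673), and cluster 12 its highest Plin2 in the GITR/Syn GA-aFuc mouse, at 464. In monocyte cluster 8 of the GITR/Syn GA-aFuc mouse, 1 of 39 cells held 104 of 276 Fabp5 UMIs, and 1 held 12 of 21 Gpnmb UMIs.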

How the results depend on the processing

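Counts of the 8 genes called between macrophages and monocytes stayed within 1.5 times of 6 under every setting run. In macrophages, leaving out a mouse gave 0 to 1 for each antibody against Untreated and 0 to 2 for Fc-enhanced against other, and no filter on low counts gave 1 for GA-aFuc. In monocytes, leaving out a mouse gave 0 to 1 for N297A, 1 to 3 for GITR/Syn GA-aFuc (1 without either Untreated mouse, then Spp1) and 0 to 2 for Fc-enhanced; no filter gave 1 for N297A, 1 for GA-aFuc, 4 for GITR/Syn GA-aFuc and 2 for Fc-enhanced. The GITR/Syn GA-aFuc count of 2 became 1 with DESeq2, 0 with limma-voom, 1 without the top 5% of cells by UMIs and 0 with clusters at fixed shares and limma-trend; the Fc-enhanced count became 1 with DESeq2. Differences between types went from 0 to 1 at most: N297A with no filter (1), and both with a mouse left out (0 to 1). Within clusters, N297A had 3 calls, 1 with DESeq2, 11 with no filter and 4 to 17 with a mouse left out; Fc-enhanced had 2, 4 with limma-voom, 9 with no filter, 5 without the top 5% of cells and 3 to 14 with a mouse left out, so these counts are not stable. A minimum of 15 cells per mouse and leaving out clusters 9 and 12, both chosen after seeing the data, kept the counts within 1.5 times. In the treatment fits, leaving out an Untreated or N297A mouse left only 1 treatment with 2 mice, so those counts say little about the spread. With no replicate block, macrophages against monocytes called 6. The median r of 0.0791 was 0.0497 at 1000 UMIs per cell and 0.117 at 6000: shallow cells limit r, and 8 monocyte pairs gave no value at 1000 UMIs. The cause of the other changes was not tested. Of 3713 values uncalled in both settings, 284 changed sign; no called value did.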
